A study of Mus musculus with 6 samples.

Results

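The apolipoprotein cluster Apoa1, Apoc3, Apoa4 and Apoa5 was examined for DNase I hypersensitivity in livers of fed and fasted mice. Its members are the union regions of hotspots that overlap chromosome 9 from 46000000 to 46120000 (mm9), a window of 120 kb set by position and not by any measured value. The window held 19 of the 75169 union regions of chromosomes 1 to 19 and X, and 16 of these 19 were called in all 6 libraries, as were 37044 of the regions of the whole series. DNase I cuts accessible DNA, and a hotspot is a stretch with an excess of sequenced ends.

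All mice were C57BL/6, an inbred strain. One group was fed ad lib (3 libraries) and the other fasted for 24 h (3 libraries), and no genotype or other agent is named for either group. Sex and age are not given in the labels used here, and the labels do not say that each library is a separate mouse, so a p-value reflects only how these libraries vary, which may be technical. Whole liver was used, so the signal mixes hepatocytes with other liver cells, and a change in the cells present cannot be told apart from a change of chromatin within a cell type. Relative depth, read from the step between densities, was 1 to 1.90, with fed replicate 3 (1.64) and fasted replicate 2 (1.90) deepest in their groups.

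The 4 genes encode secreted proteins that ride on plasma lipoproteins. Apoa1 is the main protein of high-density lipoprotein and activates the enzyme that esterifies its cholesterol. Apoc3 slows the breakdown of triglyceride-rich particles by lipoprotein lipase and their uptake by the liver, whereas Apoa5 is made in the liver and favours that breakdown. Apoa4 is made in the intestine and, in mice, also in the liver, and is carried on chylomicrons and high-density lipoprotein. In the RefSeq gene table for GRCm38.p6 the order along chromosome 9 is Sik3, Apoa1, Apoc3, Apoa4, Apoa5, Zpr1 and Bud13. That build differs from the mm9 of the hotspots, so no region below is assigned to a gene, and regions are named by their mm9 start. In GRCm38.p6 the Apoa1 promoter begins at 46228380 and the Apoa5 promoter at 46268358, a stretch shorter than the 120 kb window. The word cluster below therefore stands for all regions of the window, some of which may lie outside the 4 genes. Which ones do was not determined.

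RefSeq promoters were at hand for 3 of the 4 genes and are shown as the start-site DNA of the genes that name the cluster. Each line gives the 250 bases before the start of the transcript, 5′ to 3′, with matches to the searched motifs in capitals.
Apoa1 promoter, GRCm38.p6 chr9:46228380-46228629, + strand: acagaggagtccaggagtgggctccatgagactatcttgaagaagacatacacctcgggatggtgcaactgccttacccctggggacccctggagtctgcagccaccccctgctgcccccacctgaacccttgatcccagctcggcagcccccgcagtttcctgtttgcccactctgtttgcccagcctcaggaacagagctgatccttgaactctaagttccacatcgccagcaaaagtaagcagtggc
Apoa4 promoter, GRCm38.p6 chr9:46240594-46240843, + strand: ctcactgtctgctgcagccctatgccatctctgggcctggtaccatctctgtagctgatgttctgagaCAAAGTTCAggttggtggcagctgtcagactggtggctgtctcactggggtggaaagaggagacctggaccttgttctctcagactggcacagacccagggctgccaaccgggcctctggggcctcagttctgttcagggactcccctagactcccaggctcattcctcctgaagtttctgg
Apoa5 promoter, GRCm38.p6 chr9:46268358-46268607, + strand: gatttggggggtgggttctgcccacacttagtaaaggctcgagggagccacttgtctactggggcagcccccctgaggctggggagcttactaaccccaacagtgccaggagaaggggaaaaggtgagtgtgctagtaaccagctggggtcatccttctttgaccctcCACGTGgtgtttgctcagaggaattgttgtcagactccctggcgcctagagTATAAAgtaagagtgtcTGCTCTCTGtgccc

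The 11 motifs were searched on both strands of 300 bases (250 before and 50 after the start). They were TATAAA (the TATA box), CANAGNNCA (a core shared by many HNF4A and PPARA sites), AGGTCA (nuclear receptors), GTTAAT (HNF1), TTGCNNAA (C/EBP), TGTTTAC (FOXA and FOXO), TGACG and TGACGTCA (CREB), ACANNNTGT (glucocorticoid receptor), GGGCGG (the GC box) and CACGTG (the E-box). The letters TGACG lie within TGACGTCA. Apoa4 held 1 match, CAAAGTTCA to the HNF4A and PPARA core on the printed strand, from -182 to -174 counted from the start. Apoa5 held that core on the other strand (-14 to -6), an E-box (-82 to -77) and a TATA box (-31 to -26). A second Apoa5 start in the table, 25 bases downstream, held the same 3 matches. Apoa1 had no match in this window to any of the 11. Of 32544 promoters in the table with different sequences, 24.3% held the HNF4A and PPARA core, 7.17% the E-box and 13.6% the TATA box. These are matches of letters only.

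The window is among the most densely accessible of the liver genome in these data. When chromosomes 1 to 19 and X were laid out in windows of 120 kb in step with this one, 11134 windows held a region called in all 6 libraries, with a median of 3 such regions and a median summed density of 72.4. The apolipoprotein window held 16, a number reached by 7 windows including itself (0.0629%), and its summed density of 1056 ranked 5. Density here means the height of overlapping tags at the tallest hotspot of a region in each library, on the deposited scale, which the labels and headers do not define. Over the 16 shared regions the median density was 62.8, against 23.7 over all shared regions, and 14 of the 16 stood above that genome-wide median. In the top 10% of all shared regions by density lay 5 of the 16.

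The fed hotspots covered 20.6, 21.3 and 24.3 kb of the window (replicates 1 to 3), and the fasted hotspots 21.6, 26.7 and 22.0 kb. The groups overlapped, and the longest cover of each group came from its deepest library. The regions spanned 86.9 kb, from chr9:46004544-46005583 to chr9:46090647-46091421, and were 775 to 4522 bp wide when shared by all libraries. The widest gap, 14.4 kb, lay between the regions at 46048539 and 46063843, and split the cluster into a left and a right part. None of the 19 regions was called in all libraries of one group and no library of the other, against 2.74% of all union regions.

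**Figure D1:**
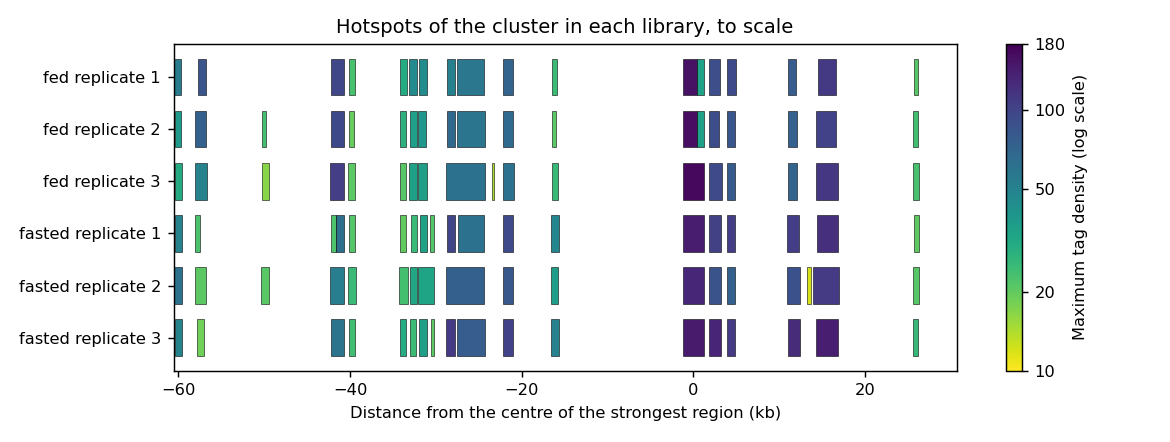
Hotspots of the cluster in each of the 6 libraries (rows), drawn to scale against the distance in kb from the centre of the strongest region, with the maximum tag density as colour on a log scale. The same 16 regions appear in every library, and 3 weak ones appear in 1 or 3 libraries.

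After 24 h of fasting 4 of the 16 shared regions rose and 2 fell, with the risen regions in the middle and right of the cluster and both fallen ones at its left end. Among all 37044 shared regions 7.89% rose and 7.84% fell at the same threshold (limma, Benjamini-Hochberg adjusted p under 0.05 over all shared regions). With no centring 5.25% of all shared regions rose and 8.61% fell. When only the upper 50% of regions by density were tested, which held 14 of the 16, 10.4% rose and 6.96% fell. At an unadjusted p under 0.05 the cluster had 5 higher and 2 lower regions, against 14.6% and 13.1% of all shared regions. Fold changes are differences of log2(density + 1), with the median over the shared regions of every library set to 0 first. The median log2 fold change of the 16 regions, fasted minus fed, was 0.23, against 0.03 over all shared regions, and the 16 values ran from -1.60 to 0.95. Denser regions as a class stood a little higher in the fasted libraries, with a median of 0.10 over the upper 50% of regions by density. With that drift removed by cyclic loess, a choice made after the data were seen, the same 4 regions rose and the same 2 fell, but the median of the 16 regions was 0.11. It was also 0.11 after quantile normalization, and 0.15 without the deepest library of each group.

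The risen region with the largest change was chr9:46048539-46049470, 932 bp wide. Fed replicates 1 to 3 stood at densities of 25.0, 21.0 and 25.6, and fasted replicates 1 to 3 at 47.9, 36.5 and 50.6. Every fasted library stood above every fed one, and the group means were 23.9 ± 2.52 and 45.0 ± 7.47 (SD, n = 3 each). The log2 fold change was 0.95 (SE 0.18, limma adjusted p = 0.00091). Its hotspots were also wider in the fasted libraries, at 901, 797 and 908 bp against 548, 487 and 689 bp in the fed ones. By its mean over the 6 libraries it was denser than 64.5% of all shared regions.

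The widest region, chr9:46036311-46040832, rose from 57.0, 68.2 and 61.1 (fed) to 99.0, 75.4 and 109 (fasted). At 4522 bp it ranked 98 by width among all shared regions. Its log2 fold change was 0.66 (SE 0.15, limma adjusted p = 0.0044), and the lowest fasted value, in the deepest library, lay above the highest fed one. In 4 libraries it was split into a shorter left hotspot and a longer right one. The left hotspot reached 51.5 and 68.2 in fed replicates 1 and 2 and 99.0 and 109 in fasted replicates 1 and 3. The right one reached 57.0 and 58.8 in the same fed libraries and 60.7 and 77.5 in the same fasted libraries. In these 4 libraries the groups thus lay further apart in the left hotspot. With the average in place of the maximum density the region did not pass (log2 fold change 0.26, limma adjusted p = 0.25).

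Between these lay chr9:46042911-46044177, with 71.7, 66.7 and 61.3 (fed) against 93.6, 82.3 and 102 (fasted). The groups did not overlap, the log2 fold change was 0.54 (SE 0.14), and the limma adjusted p was 0.010. With densities as deposited, with no centring, the log2 fold change was 0.47 and the region missed the threshold (limma adjusted p = 0.055). The last risen region lay to the right of the gap, at chr9:46076028-46077571. There the fed libraries stood at 77.6, 74.2 and 71.9 and the fasted ones at 107, 88.2 and 126, again without overlap. Its log2 fold change was 0.57 (SE 0.14, limma adjusted p = 0.0062). Its hotspots measured 984, 1063 and 1087 bp in the fed libraries and 1405, 1528 and 1393 bp in the fasted ones. Height and width were thus both greater in the fasted group. Within each group the widest hotspot came from the deepest library, which had the lowest height. In all 4 risen regions fasted replicate 2, the deepest library, had the lowest fasted density as deposited. The same 4 regions rose, and the same 2 fell, without the deepest library of each group and with depth as a covariate, both choices made after the data were seen.

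The largest change of the window was a loss, at chr9:46007026-46008404, near the left end of the window and not assigned to any of the genes. Fed replicates 1 to 3 stood at 84.6, 74.9 and 49.4, and fasted replicates 1 to 3 at 22.7, 20.7 and 18.8. The lowest fed library stood above the highest fasted one, and the means fell from 69.7 ± 18.2 to 20.7 ± 1.96 (SD, n = 3 each). The log2 fold change was -1.60 (SE 0.20, limma adjusted p = 8.7e-06), which ranked 368 by absolute size among the 37044 shared regions. The fed libraries differed among themselves more than the fasted ones, and the lowest fed value was that of replicate 3, the deepest fed library. The hotspots did not share the same bounds. In fasted replicate 1 the hotspot ran from 46007080 to 46007654, and in fed replicate 1 from 46007346 to 46008330. Those of fasted replicates 2 and 3 reached 46008340 and 46008100. Where within a hotspot the maximum lay was not examined, so the maxima compared may lie at different places. The second fallen region, chr9:46022794-46024434, went from 97.5, 95.2 and 107 (fed) to 63.6, 53.3 and 59.9 (fasted). Its log2 fold change was -0.68 (SE 0.14, limma adjusted p = 0.0022), and the groups did not overlap.

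**Figure D2:**
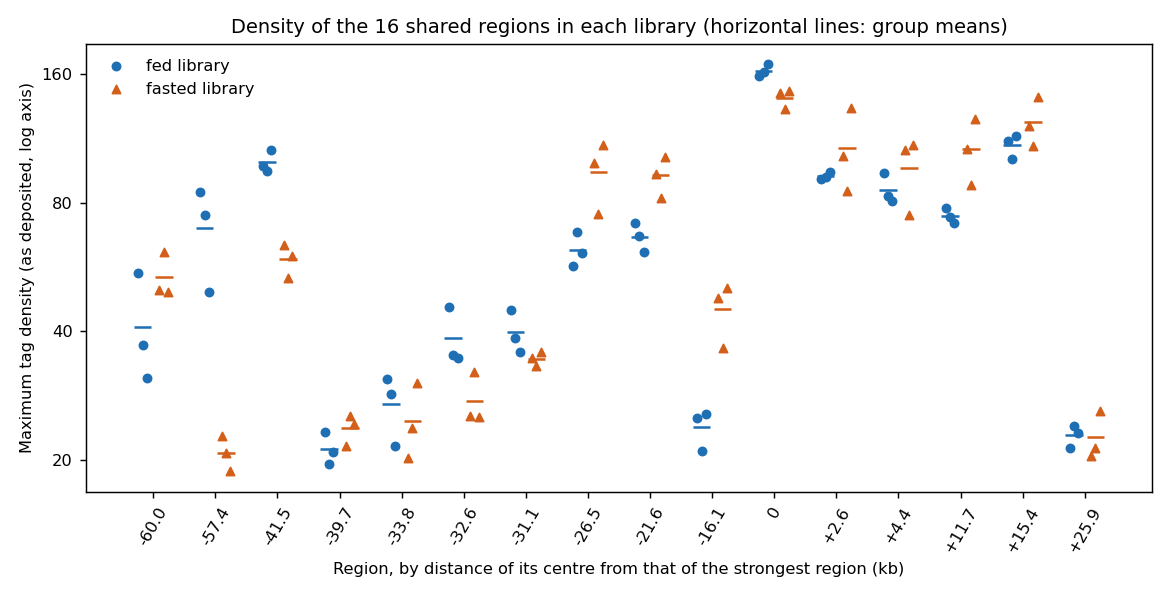
Maximum tag density as deposited (log axis) of the 16 shared regions in each library, ordered along the chromosome by distance from the strongest region in kb, with fed libraries as circles, fasted ones as triangles and group means as lines. The groups separate most at the fallen region 57.4 kb to the left, where fed libraries sit between 49.4 and 84.6 and fasted ones between 18.8 and 22.7.

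The nearest neighbours of both fallen regions did not pass the test. The fallen region at 46007026 lies 1.44 kb from the one at 46004544, with densities of 54.8, 37.1 and 31.1 (fed) against 49.9, 61.2 and 49.3 (fasted). That neighbour had a log2 fold change of 0.48 in the other direction and did not pass (limma adjusted p = 0.11), with groups that overlapped. The fallen region at 46022794 has a weak neighbour 0.457 kb away, at 46024892, with 23.2, 19.5 and 20.8 (fed) against 21.6, 25.3 and 24.2 (fasted). Its log2 fold change was 0.23, with a 95% confidence interval of -0.18 to 0.63. A ratio within a library is free of any scaling between libraries. The density at 46048539 was 0.296, 0.280 and 0.519 times that at 46007026 in the fed libraries, and 2.11, 1.76 and 2.69 times it in the fasted ones. The order of these sites, 41.3 kb apart, was thus opposite in fed and fasted liver in every library. This pair was chosen for its changes and the ratio was not tested.

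**Figure D3:**
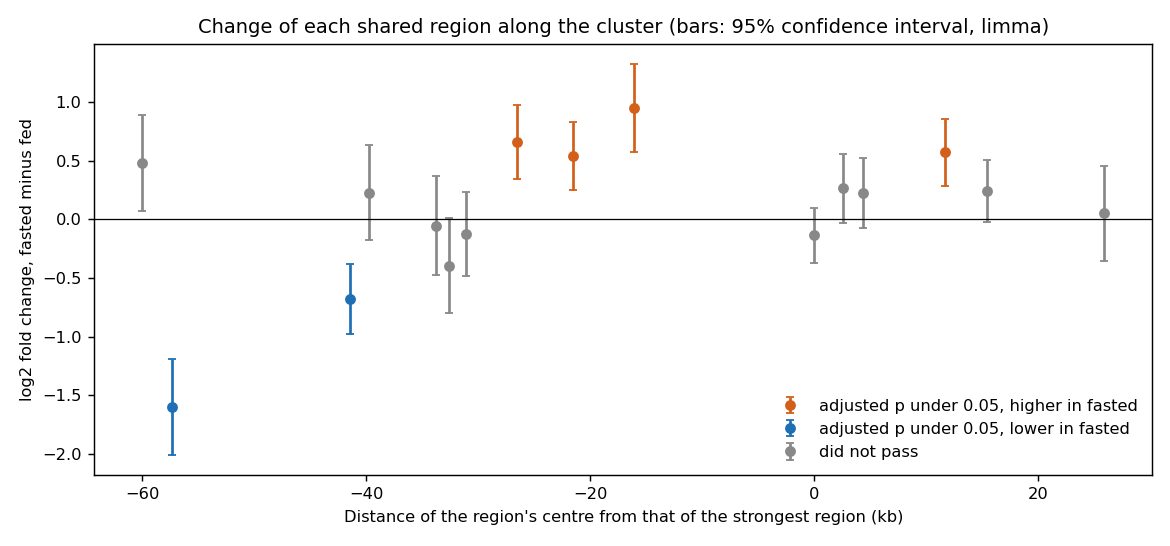
log2 fold change, fasted minus fed, of each shared region (y axis) against its distance in kb from the strongest region (x axis), with 95% confidence intervals from limma. Both fallen regions lie 57.4 and 41.5 kb to the left, 3 risen ones lie 26.5 to 16.1 kb to the left and 1 lies 11.7 kb to the right.

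The strongest site of the cluster, chr9:46063843-46066357, did not pass the test. The fed libraries reached 159, 162 and 169 and the fasted ones 144, 133 and 147, and the site ranked 674 among all shared regions. The groups did not overlap, fasted below fed, but the log2 fold change was only -0.14 (95% confidence interval -0.37 to 0.10, limma adjusted p = 0.48). With average density its sign turned (0.14, limma adjusted p = 0.53). Fed replicates 1 and 2 divided the site into a strong hotspot and a weaker right one of 34.2 and 35.2, while the other 4 libraries called a single hotspot. Beside it, chr9:46066898-46068429 stood at 90.8, 91.8 and 94.3 (fed) against 103, 85.4 and 134 (fasted). The next, chr9:46069005-46070007, stood at 93.8, 83.2 and 80.6 (fed) against 106, 74.8 and 109 (fasted). Both had overlapping groups as deposited, whereas on the centred scale every fasted library stood above every fed one at 46066898 but not at 46069005. Their log2 fold changes of 0.26 and 0.23 did not pass (limma adjusted p = 0.23 and 0.33). At 46066898 the log2 fold change was 0.15 without fasted replicate 3. Second in height was chr9:46079027-46082067, a region of 3041 bp, with 112, 102 and 114 (fed) against 121, 109 and 141 (fasted). Its log2 fold change of 0.24 did not pass either (95% confidence interval -0.02 to 0.51, limma adjusted p = 0.22).

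The group of 3 regions at 46030838, 46032000 and 46033006, separated by 0.197 and 0.089 kb, lies between the fallen and the risen regions. Mean densities of these regions were 27.0, 38.5 and 39.7 (fed) against 24.7, 27.5 and 34.5 (fasted), with log2 fold changes of -0.05, -0.39 and -0.12, and none passed. The region at 46032000 had fed values of 45.6, 35.2 and 34.6 and fasted values of 25.2, 32.2 and 25.1, without overlap as deposited, and an adjusted p of 0.20 by limma. Without fasted replicate 2 it passed (log2 fold change -0.57, limma adjusted p = 0.046). At the right end, the region at 46090647 had means of 22.8 ± 1.35 in fed and 22.6 ± 3.01 in fasted libraries (SD, n = 3 each). The 95% confidence interval of its log2 fold change (0.05) ran from -0.35 to 0.46.

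Of the 16 shared regions, 7 had every fasted library above every fed one on the centred scale and 3 had every fasted library below. The same held for 16.8% and 14.6% of all shared regions. As deposited the numbers were 4 and 4, with 8 regions overlapping, against 11.0% and 17.1% of all shared regions. Weak regions completed the cluster. The region at 46014722 was called in fed replicates 2 and 3 and fasted replicate 2, at 23.6, 16.7 and 21.1. Those at 46041643 and 46078331 were called only in fed replicate 3 (14.6) and only in fasted replicate 2 (12.0), the deepest library of each group. A missing call is an unknown density and not a density of 0.

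The median SD between replicates on the log2 scale was 0.14 over the 16 regions of the cluster and 0.23 over all shared regions. The cluster regions were also denser (median 62.8 against 23.7), and their spread was not compared with that of equally dense regions. If 1 step of the density is 1 tag, the shared regions of the cluster reached 52 to 738 tags, with a counting error of 3.68% to 13.9% (median 7.13%), which covers counting only. At 46048539 the fed heights were 68, 56 and 112 tags and the fasted ones 169, 185 and 167. This region was picked for its rise. A Poisson interval treats a height as a count at a fixed place, whereas it is the maximum over a hotspot, so the intervals are only a rough guide. The exact Poisson 95% interval of the highest fed density there ran from 21.1 to 30.8, and that of the lowest fasted density from 31.4 to 42.2. These intervals did not meet, but the highest fed density came from the deepest fed library. The interval of fed replicate 1, a shallower library, ran from 19.4 to 31.7 and met that of the lowest fasted density.

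Added up over the 16 shared regions, the fed libraries reached 1089, 1022 and 1001 and the fasted ones 1080, 955 and 1188, with overlapping groups. Divided by each library's median over all shared regions, the sums were 43.5, 43.3 and 42.9 (fed) against 47.0, 45.7 and 48.5 (fasted), without overlap. This division does not remove the drift of denser regions given above, and 14 of the 16 were denser than the median of all shared regions. On the deposited scale the log2 ratio of the group means was 0.05, and without fasted replicate 3 it was -0.03.

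Both flanks held fewer regions than the window itself. The 120 kb to the left held 10 union regions, of which 4 were shared, and the 120 kb to the right held 3, of which 1 was shared. None of these 5 passed (limma, and 0 at an unadjusted p under 0.05). Their log2 fold changes ran from -0.16 to 0.36 and their mean densities from 13.4 to 47.3. Over all shared regions 7.89% rose and 7.84% fell by limma, or 14.6% and 13.1% at an unadjusted p under 0.05. With so few regions, 0 of 5 does not set the flanks apart from the whole series.

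**Figure D4:**
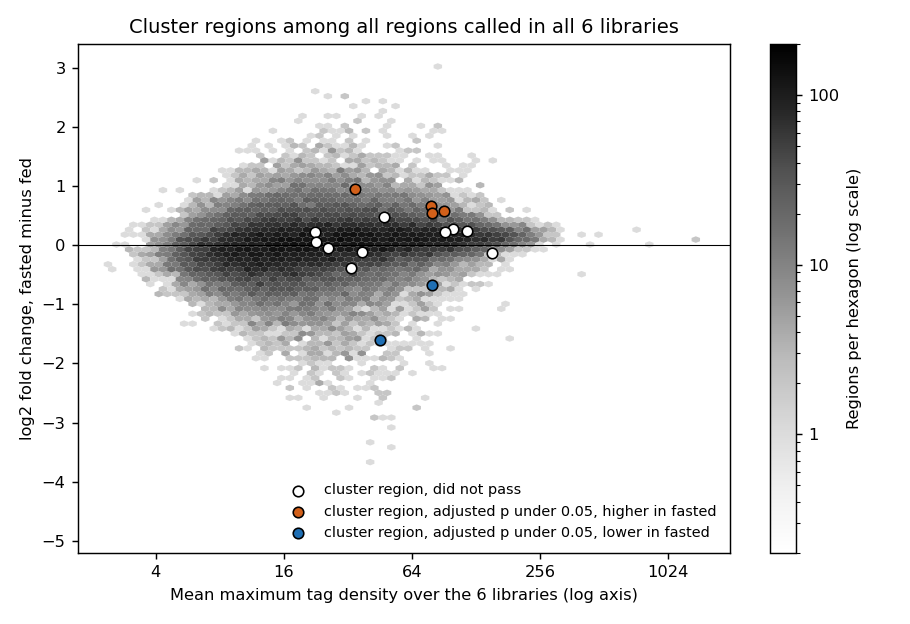
log2 fold change, fasted minus fed, against the mean maximum tag density (log axis) for all 37044 shared regions (grey hexagons, darker for more regions), with the 16 cluster regions as circles. The cluster regions lie mostly on the dense side, and the fallen region at -1.60 lies low in the cloud, which reaches down to -3.67.

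Regions elsewhere with the most similar profile over the 6 libraries were found by Pearson's r on centred log2 density, as a description. The search left out the window and some chromosomes, so its counts are not over all shared regions. For the fallen region at 46007026 they were chromosome 9 at 67343859 (r = 0.997), chromosome 13 at 23294865 (0.996) and chromosome 12 at 31053758 (0.995). Of the shared regions searched, 396 reached r of at least 0.95 with it. For the strongest region at 46063843 they were chromosome 15 at 12123365 (0.997), chromosome 14 at 14792702 (0.988) and chromosome 7 at 137368344 (0.987), and 74 regions reached 0.95.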

How the data were processed

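DNase I hypersensitivity was measured by sequencing in 6 liver libraries, 3 from fed and 3 from fasted mice. Per the labels' protocols, nuclei were digested at 40 U/ml DNase I and fragments of 100 to 500 bp were kept. Per the submitters' processing notes, CASAVA 1.8 and build mm9 were used. Which aligner and hotspot caller were used is not stated in the labels or headers. Per the file headers, each library has its own hotspot list with a maximum and an average tag density (a coverage signal deposited by the authors), a p-value and a z-score. The authors' score per hotspot and the authors' p-value entered no comparison.

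Hotspots sharing at least 1 bp were merged over the 6 lists. The highest maximum density per region and library was taken as log2(density + 1) and centred on the library median over regions called in all 6. These regions were compared in limma 3.58.1 under R 4.3.3 (trended eBayes, two-sided, Benjamini-Hochberg over 37044 regions, threshold 0.05). Tables and plots used Python 3.11.15, numpy 2.4.6, pandas 2.3.3, scipy 1.17.1 and matplotlib 3.10.9. Values in every library were given for regions past the threshold, the 8 densest and any called in one group only; those at 46004544, 46024892 and 46032000 were added after their values were seen. Sequences come from RefSeq tables of GRCm38.p6. The members, lists and motifs were chosen with earlier results of these data known. Other lipoprotein genes, and the liver markers that would check the tissue, were not analysed here, since no mm9 gene positions were used.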

Additional observations from a re-analysis of the deposited data

How the results depend on the processing

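Each limma value was recomputed under 19 alternatives, of which cyclic loess, depth as a covariate and leaving out the deepest library of each group were added after seeing the data. The number of cluster regions that rose was 3 to 5 and the number that fell 2 to 3, while over all regions tested 3.49% to 10.4% rose and 3.80% to 8.61% fell. All 6 called regions passed in every alternative except 46042911 with no centring (0.47, limma adjusted p = 0.055) and 46036311 with average density (0.26, adjusted p = 0.25). Under the replicate block 4 rose and 2 fell, the same regions. Deviations from the group means of libraries with the same number correlated at -0.067, -0.030 and -0.167, which gave no sign of pairing. These values cannot decide on pairing, since the deepest libraries of the 2 groups carry different numbers. Without each replicate in turn 4 to 5 rose and 2 to 3 fell: 46004544 also rose without fed replicate 1 (0.68, adjusted p = 0.034) and 46032000 also fell without fasted replicate 2 (-0.57, adjusted p = 0.046). Signs turned at 3 regions that had not passed, and the cause was not tested. These were 46063843 with average density (0.14), 46090647 with no centring (-0.019) and on leaving out each replicate (-0.014 to 0.14), and 46030838 with depth as a covariate (0.03) and on leaving out each replicate (-0.17 to 0.10; 0.03 without fed replicate 1, 0.0075 without fed replicate 2). The covered length differed by 1.35 kb between groups (fasted minus fed), -0.27 to 2.48 kb on leaving out each replicate, and the log2 ratio of summed densities was 0.05, -0.03 to 0.13. In the upper 50% of regions by density 2 of the 16 cluster regions were not tested.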
